A study of Mus musculus with 9 samples.

Results

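The smooth muscle contractile genes described here are Acta2, Tagln, Cnn1, Myh11, Cald1, Synpo2, Tpm1, Tpm2, Myl9 and Smtn. They were chosen by name, as the genes whose products build or organise the contractile filaments of smooth muscle, and each of the 10 has 1 row among the 31232 genes of the table. Their transcripts were measured in bEnd.3 cells, which are endothelial cells of mouse brain made immortal with polyoma middle T antigen, after a parallel-plate chamber passed flow over them. The 9 libraries of polyadenylated RNA fall into 3 groups of 3: PSS, laminar flow at 10 dyne/cm2, given as the normal shear of brain vessels; HSS, laminar flow at 20 dyne/cm2, given as the early stage of an intracranial aneurysm; and Vortex, vortex flow at 0.5 to 2 dyne/cm2, given as the late stage and called VSS in the series text. All groups share the line, and the labels name no treatment beside flow and no exposure time. Nothing in the labels says that replicates came from separate cultures, so p-values measure the spread between these libraries, which may be technical.

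Smooth muscle shortens when myosin II, switched on by phosphorylation of its regulatory light chain, pulls on thin filaments of alpha-actin. Tropomyosin, caldesmon, calponin and transgelin lie along or bind those filaments. Most of these genes are driven by serum response factor (SRF) with its coactivators of the myocardin family, acting at a DNA element called the CArG box. Most have close relatives in non-muscle cells, and caldesmon and tropomyosin genes make both muscle and non-muscle forms. Endothelial cells normally hold little of the muscle-restricted forms, and their gain is a common readout of a shift from an endothelial to a mesenchymal state.

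The sequences upstream of 4 of the genes are shown first, 2 because they hold CArG-type matches and 2 because Cald1 and Synpo2 passed the tests below. They are the 165 bases before the RefSeq start on GRCm38.p6, 5′ to 3′ on the gene's strand, with any match in capitals. The CArG box was searched by its name pattern, a pair of C, a run of A or T and a pair of G, which reads the same on both strands; a second search allowed 1 G or C within the run. RefSeq windows were matched by symbol for 8 of the 10 genes, all but Tagln and Myh11.
Acta2, chr19:34255374-34255538, minus strand: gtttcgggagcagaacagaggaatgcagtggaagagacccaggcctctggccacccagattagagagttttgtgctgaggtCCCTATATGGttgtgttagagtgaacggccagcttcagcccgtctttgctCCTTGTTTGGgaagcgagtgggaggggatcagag
Myl9, chr2:156775299-156775463, plus strand: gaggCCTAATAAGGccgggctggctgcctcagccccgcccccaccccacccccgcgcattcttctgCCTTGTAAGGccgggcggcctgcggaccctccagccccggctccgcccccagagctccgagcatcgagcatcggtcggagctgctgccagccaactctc
Cald1, first start, chr6:34598339-34598503, plus strand: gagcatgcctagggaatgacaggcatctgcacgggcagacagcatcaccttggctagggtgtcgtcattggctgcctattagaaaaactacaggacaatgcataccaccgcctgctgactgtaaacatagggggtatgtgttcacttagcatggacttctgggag
Cald1, second start, chr6:34709279-34709443, plus strand: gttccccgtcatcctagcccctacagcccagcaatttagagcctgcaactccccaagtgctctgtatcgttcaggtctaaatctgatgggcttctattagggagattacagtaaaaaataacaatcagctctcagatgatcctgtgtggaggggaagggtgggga
Synpo2, chr3:123236150-123236314, minus strand: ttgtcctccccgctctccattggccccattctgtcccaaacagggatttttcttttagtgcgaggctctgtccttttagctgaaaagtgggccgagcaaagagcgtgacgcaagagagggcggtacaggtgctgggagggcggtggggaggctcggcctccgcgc
Over the 250 bases before the start, 2 of the 9 windows of these genes held a match, and 1, in Myl9, held an exact box. That box lies 161 to 152 bases before the Myl9 start. Myl9 has a further match with 1 G or C at 99 to 90 bases, and the Acta2 window has such matches at 84 to 75 and at 34 to 25 bases. Of all 32851 RefSeq windows of that length, 1.47% held the exact box and 8.59% held either form. A match is a description of letters and not a shown binding site.

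The libraries held 17407217 to 22965802 counts, and 15774 genes, 7 of these 10 among them, had enough counts to be tested. The lowest correlation with a library of the same group was 0.852 for both Vortex replicates 1 and 2, and 0.916 for Vortex replicate 3. It was at least 0.977 among PSS and 0.992 among HSS libraries. Vortex replicate 2 stood apart from the rest by its GC trend. Against the mean of PSS, its log2 levels had a median difference of -1.41 in the eighth of genes poorest in GC and of 0.898 in the richest eighth, where no other library went beyond -0.449 and 0.273. The endothelial gene Pecam1 was at 1454 CPM there and at 1.76 and 55.0 CPM in the other Vortex libraries (CPM is a count relative to the TMM-scaled library total). Calls of named genes are therefore given with and without that library. In bulk RNA, fewer cells of a type and less RNA per cell cannot be told apart, and a count per gene does not separate muscle from non-muscle splice forms.

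The 10 genes split sharply by level. Cald1, Tpm1 and Smtn had at least 595 counts in every library, while Acta2, Tagln, Cnn1, Myh11 and Myl9 never had more than 29. Synpo2, at 9 to 305 counts, and Tpm2, at 15 to 90, lay between. Per length, the 10 genes summed to 133.9 ± 1.86 FPKM (the authors' level scaled by gene length and library total) in PSS, 111.4 ± 1.00 in HSS and 112.0 ± 19.4 in Vortex (SD, n = 3 each). Cald1, Tpm1 and Smtn made up at least 98.0%, 97.4% and 98.7% of that sum in any library of the 3 groups. Of these, Cald1 and Tpm1 also have non-muscle forms, while the muscle-restricted actin, myosin, calponin and transgelin were near absent.

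The order per length was Cald1, Tpm1, Smtn in both laminar groups. In PSS these stood at 74.1 ± 0.741, 44.1 ± 1.89 and 13.2 ± 2.75 FPKM, and in HSS at 55.7 ± 0.431, 45.1 ± 0.816 and 7.81 ± 0.179 (SD, n = 3). In Vortex the first place went to Tpm1 at 61.9 ± 26.2 FPKM, ahead of Cald1 at 30.8 ± 7.47 and Smtn at 17.9 ± 14.4. The ranges of these 3 genes overlapped in Vortex, whereas the first 3 places in PSS and HSS were separated by more than their spread. Below them in PSS came Synpo2 at 1.07 ± 0.196, Acta2 at 0.580 ± 0.0744, Tpm2 at 0.399 ± 0.161 and Myl9 at 0.313 ± 0.184 FPKM, with neighbours after Synpo2 overlapping. In HSS the fourth place went to Tpm2 at 1.39 ± 0.093, ahead of Synpo2 at 0.599 ± 0.0472 and Acta2 at 0.390 ± 0.218. In Vortex Tpm2 stood at 0.798 ± 0.419, Acta2 at 0.244 ± 0.0839 and Synpo2 only at 0.0831 ± 0.0614 FPKM. Myh11, Cnn1 and Tagln did not exceed 0.121 FPKM as a mean in any group, and their ranges overlapped in each group. They held the last 3 places in PSS, while Myl9 stood at 0.110 ± 0.116 FPKM among them in HSS and was last, at 0, in Vortex, where Cnn1 at 0.111 ± 0.0488 came before Synpo2.

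**Figure D1:**
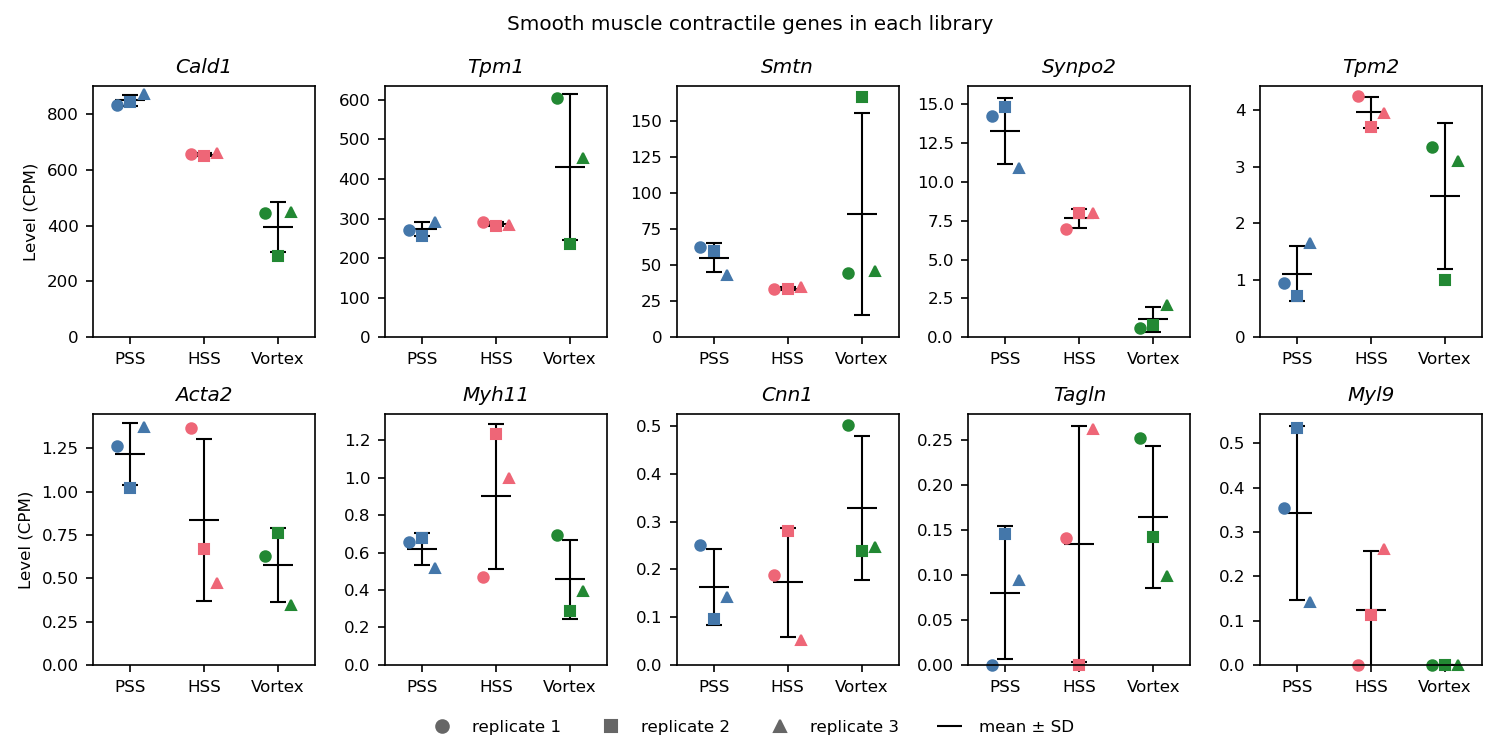
Level of each of the 10 genes in every library, in CPM on linear axes from 0, with the mean and SD of each flow group (n = 3) as bars and the replicate number as the symbol. Cald1 and Synpo2 step down from PSS to HSS to Vortex, Tpm1, Tpm2 and Smtn are split by Vortex replicate 2, and the lower row never exceeds 1.37 CPM.

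Among thin filament genes, Cald1, which encodes caldesmon, an actin-binding inhibitor of actomyosin, was lower under vortex flow. Its levels were 833.6, 845.4 and 872.8 CPM in PSS, 656.1, 648.8 and 660.9 in HSS, and 447.0, 292.8 and 450.4 in Vortex. No 2 groups overlapped, and Vortex replicate 2 was the lowest library. Against PSS the log2 fold change in Vortex was -1.10 ± 0.19 (SE, edgeR quasi-likelihood test, adjusted p = 0.00795) and -0.92 ± 0.11 without Vortex replicate 2 (adjusted p = 0.000235); the call was lost in a fit of the 6 compared libraries alone (0.0725). Against HSS it was -0.72 ± 0.19 with an adjusted p of 0.0497, at the edge of the threshold of 0.05; leaving out the replicate gave -0.55 ± 0.11 (adjusted p = 0.00737). That call was lost in 11 of 20 alternative settings, among them the removal of Vortex replicate 3 or of any 1 laminar library (edgeR adjusted p = 0.0582 to 0.184). From PSS to HSS the log2 fold change was -0.38 ± 0.19 and did not pass (adjusted p = 0.266 in edgeR), but without Vortex replicate 2, whose spread enters the fit over all groups, the same -0.38 had an SE of 0.10 and passed (adjusted p = 0.0162).

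Tpm1, a tropomyosin gene expressed in muscle and in most other cells, was level in the laminar groups and uneven in Vortex. PSS held 271.2, 256.0 and 292.4 CPM, HSS 291.9, 282.2 and 282.4, and Vortex 604.7, 236.7 and 452.1. Vortex replicates 1 and 3 lay above all 6 laminar libraries and replicate 2 lay below all 6. With 9 libraries no comparison passed: the log2 fold change was 0.06 ± 0.29 for HSS against PSS (edgeR adjusted p = 0.928), 0.66 ± 0.29 for Vortex against PSS (0.166) and 0.59 ± 0.29 for Vortex against HSS (0.228). Without Vortex replicate 2, Tpm1 was higher in Vortex than in PSS by 0.95 ± 0.14 (edgeR adjusted p = 0.00075) and than in HSS by 0.89 ± 0.14 (0.00245).

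Tpm2, the tropomyosin gene more typical of muscle, had few counts: 19, 15 and 35 in PSS, 90, 66 and 75 in HSS, and 53, 21 and 63 in Vortex. The HSS values of 4.24, 3.69 and 3.94 CPM lay above all others, and PSS lay at 0.958, 0.729 and 1.66. Vortex replicate 2, at 0.999 CPM, lay within the PSS range, and the other Vortex libraries, at 3.34 and 3.11, lay between PSS and HSS. HSS against PSS gave 1.82 ± 0.49 on the log2 scale with an edgeR adjusted p of 0.0569, just short of the threshold; it passed without Vortex replicate 2 (adjusted p = 0.00172) and under the DESeq2 Wald test (adjusted p = 0.00548). Vortex against PSS gave 1.14 ± 0.49 (edgeR adjusted p = 0.157), and 1.52 ± 0.34 without the replicate (0.00659). Vortex against HSS gave -0.68 ± 0.48 and did not pass (0.402, and 0.532 without the replicate).

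Acta2, smooth muscle alpha-actin and the most used marker of the contractile state, was near absent. Its counts were 25, 21 and 29 in PSS, 29, 12 and 9 in HSS, and 10, 16 and 7 in Vortex. Every Vortex library lay below every PSS library, and HSS spanned both. The group totals of 75, 50 and 33 counts give a ratio of Vortex to PSS of 0.474, with a 95% exact interval of 0.305 to 0.722 that covers counting error only. Over libraries the difference did not pass, at -1.07 ± 0.50 on the log2 scale (edgeR adjusted p = 0.188; -1.34 ± 0.54 and 0.0791 without Vortex replicate 2). HSS against PSS gave -0.53 ± 0.49 (edgeR adjusted p = 0.58) and Vortex against HSS gave -0.54 ± 0.50 (0.538). Actin genes are close paralogs, so the split of reads between Acta2 and the far more abundant Actb is uncertain.

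Cnn1, the smooth muscle calponin, had 5, 2 and 3 counts in PSS, 4, 5 and 1 in HSS, and 8, 5 and 5 in Vortex. Tagln, transgelin, had 0, 3 and 2 counts in PSS, 3, 0 and 5 in HSS, and 4, 3 and 2 in Vortex. The groups overlapped for both genes and neither had enough counts for the test. The ratio of Vortex to PSS counts was 1.94 for Cnn1 (95% exact counting interval 0.848 to 4.70) and 1.94 for Tagln (0.583 to 7.36). The ratio of HSS to PSS was 1.06 (0.395 to 2.83) and 1.69 (0.489 to 6.58). These intervals include a ratio of 1, so a difference was not detectable at this depth.

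Of the myosin genes, Myh11, the smooth muscle heavy chain and its most restricted marker, had 13, 14 and 11 counts in PSS, 10, 22 and 19 in HSS, and 11, 6 and 8 in Vortex. The groups overlapped in all 3 comparisons. Log2 fold changes were 0.53 ± 0.49 for HSS against PSS, -0.45 ± 0.52 for Vortex against PSS and -0.98 ± 0.51 for Vortex against HSS, with edgeR adjusted p of 0.589, 0.606 and 0.253; without Vortex replicate 2 these were 0.408, 0.783 and 0.33. The ratio of Vortex to HSS counts was 0.498 (95% exact counting interval 0.296 to 0.819).

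Myl9, the regulatory light chain typical of smooth muscle, had 7, 11 and 3 counts in PSS, 0, 2 and 5 in HSS, and 0 in all 3 Vortex libraries. Vortex thus lay below PSS without overlap, while HSS overlapped both. Its level was 0.343 ± 0.196 CPM in PSS (SD, n = 3) and 0.125 ± 0.132 in HSS. Set against 3 counts over the Vortex group (0.0525 CPM), PSS stood 6.50-fold and HSS 2.29-fold higher. These ratios take the PSS and HSS counts as exact, so they are not lower bounds. The HSS to PSS ratio was 0.353 (95% exact counting interval 0.127 to 0.862). Myl9 had too few counts for the main test; with no filter on low counts, edgeR gave an adjusted p of 0.0529 for Vortex against PSS, 0.231 for Vortex against HSS and 0.613 for HSS against PSS.

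Of the genes whose products bind and organise actin filaments, Synpo2, encoding myopodin or synaptopodin-2, an actin bundling protein of Z-discs and smooth muscle, showed the largest difference among the 7 tested genes. PSS held 282, 305 and 230 counts (14.2, 14.8 and 10.9 CPM), HSS 148, 143 and 152 (6.97, 8.00 and 7.98 CPM) and Vortex 9, 17 and 42 (0.567, 0.809 and 2.07 CPM). No groups overlapped, and HSS lay between PSS and Vortex. Vortex was lower than PSS with a log2 fold change of -3.51 ± 0.44 (edgeR adjusted p = 0.00365) and lower than HSS with a log2 fold change of -2.72 ± 0.43 (0.0138). The first call was lost in a fit of the 6 compared libraries alone (edgeR adjusted p = 0.0501), and the second there (0.0677) and when any 1 HSS library was left out (0.0758 to 0.0809). Without Vortex replicate 2 these were -3.28 ± 0.41 (edgeR adjusted p = 0.000266) and -2.48 ± 0.40 (0.0026). HSS against PSS gave -0.80 ± 0.39 and did not pass (edgeR adjusted p = 0.268, and 0.0677 without the replicate).

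Smtn, encoding smoothelin, an actin-associated protein of contractile smooth muscle, turned on 1 library. PSS held 62.3, 60.2 and 43.5 CPM, HSS 33.3, 33.3 and 34.7, and Vortex 44.3, 166.9 and 46.3. Vortex replicate 2 stood above all other libraries, and replicates 1 and 3 lay within the range of PSS. HSS against PSS gave -0.71 ± 0.47 on the log2 scale (edgeR adjusted p = 0.413), and -0.71 ± 0.15 without Vortex replicate 2 (0.0056), when Smtn was lower. Vortex against PSS gave 0.63 ± 0.47 (edgeR adjusted p = 0.406), and turned to -0.29 ± 0.17 without the replicate (0.2). Vortex against HSS gave 1.35 ± 0.48 with all 3 Vortex libraries above HSS (edgeR adjusted p = 0.111), and 0.42 ± 0.17 without the replicate (0.0884). That comparison passed in 4 of 20 alternative settings: the DESeq2 Wald test (adjusted p = 0.0392), the edgeR fit without Vortex replicate 1 (0.0395), the edgeR fit of the 5 compared libraries left without Vortex replicate 2 (0.0226), and the edgeR fit without it and with the GC trend removed (0.0409). Smtn has a GC content of 60.1%, above that of 96.4% of tested genes, while Cald1 has 45.0%, above 26.9%. With the GC trend removed and all libraries kept, both genes kept the sign and call of the main fit in each comparison. How much of their values in Vortex replicate 2 came from its GC shift was not tested.

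**Figure D2:**
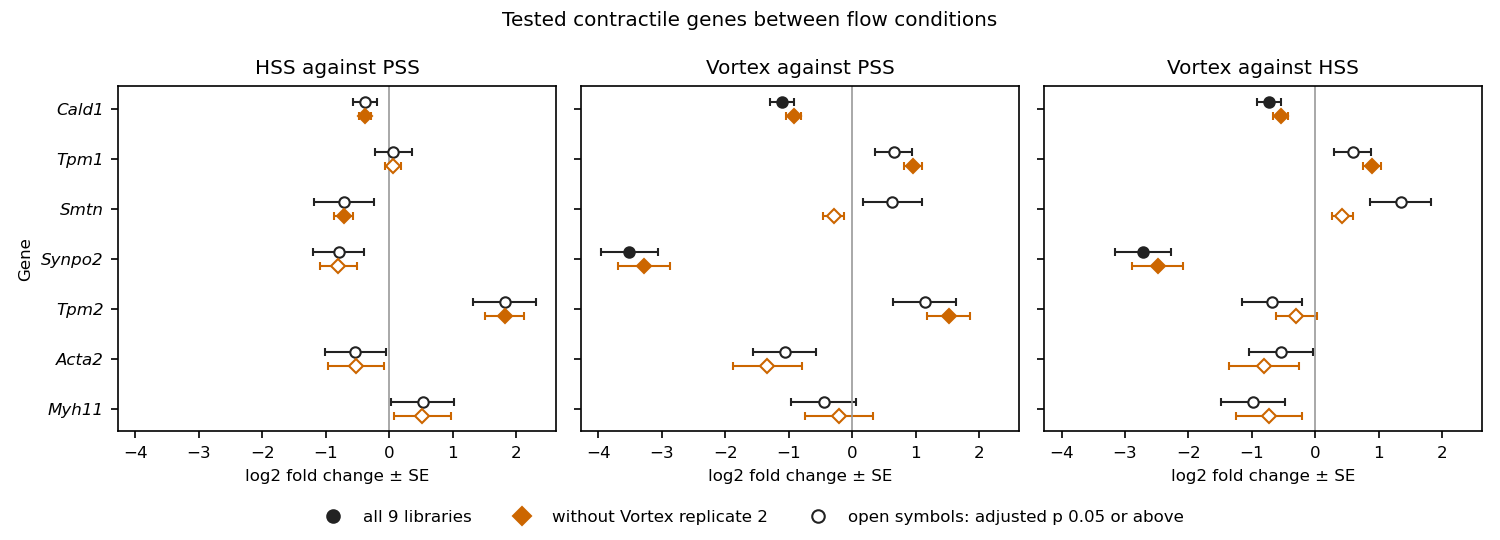
Log2 fold change of the 7 tested genes with its SE in each comparison, from edgeR with all 9 libraries (circles) and without Vortex replicate 2 (diamonds), filled where the adjusted p was under 0.05. Cald1 and Synpo2 are filled in both fits in the Vortex comparisons, and Smtn changes side of 0 between the fits in Vortex against PSS.

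Counted together, none of the 7 tested genes passed in HSS against PSS with edgeR, where 4.18% of all tested genes were called higher and 3.70% lower. There 1 of the 7 had an unadjusted p under 0.05, against 23.4% of all tested genes, and 1 was called by the DESeq2 Wald test, against 15.6%. Without Vortex replicate 2, Tpm2 was higher and Cald1 and Smtn were lower, against 15.9% and 14.1% of all genes. In a fit of the 6 laminar libraries alone Tpm2 was higher and Cald1, Synpo2 and Smtn were lower (edgeR adjusted p = 0.00206, 0.00647, 0.00352 and 0.00372), against 20.7% and 19.1% of all genes. Their ranges did not overlap for Tpm2, higher, and for Cald1, Synpo2 and Smtn, lower, against 29.9% and 26.3% of all genes. The median log2 fold change was -0.38, against -0.00488 over all tested genes. With 7 genes a median is the value of 1 gene, here Cald1.

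In Vortex against PSS, 2 of the 7 passed, both lower, against 8.33% of all genes called higher and 5.03% called lower. Without Vortex replicate 2 Tpm1 and Tpm2 joined them as higher, against 20.0% higher and 17.1% lower over all genes. Ranges lay apart for Acta2, Cald1 and Synpo2, all lower, against 15.6% of all genes higher and 14.4% lower. The median log2 fold change was -0.45, against 0.11 over all genes, and -0.29 against 0.0102 without Vortex replicate 2. These medians are the values of Myh11 and of Smtn, neither of which passed, so they do not show a shift of the set.

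In Vortex against HSS the same 2 genes, Cald1 and Synpo2, passed and were lower, against 4.37% of all genes called higher and 2.67% lower. Without Vortex replicate 2 Tpm1 was called higher and those 2 lower, against 14.1% and 10.5% of all genes. Ranges lay apart for Smtn, higher, and for Cald1, Synpo2 and Tpm2, lower, against 19.5% and 16.9%. The median was -0.68, the value of Tpm2, against 0.10, and -0.55, the value of Cald1, against 0.0275 without Vortex replicate 2. Vortex and HSS are each set against the same PSS libraries, so the 3 comparisons are not independent. The smallest p of an exact permutation test of a single gene is 0.1 with groups of 3, and Cald1 and Synpo2 reached that value in every comparison.

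The relatives of these genes used by non-muscle cells were abundant. Acta2 made up at most 0.0747% of the summed FPKM of 6 actin genes in any library, with Actb, the main cytoplasmic actin, at 80.7 ± 0.793% in PSS and 71.2 ± 2.11% in Vortex (SD, n = 3). Myh11 reached at most 0.195% of the myosin heavy chains, which were nearly all Myh9 and Myh10. Tagln stayed at or below 0.0345% beside Tagln2, and Cnn1 at or below 0.314% beside Cnn2 and Cnn3. Tpm1 was the muscle-associated gene with a large share of its family, at 19.4 ± 0.234% of the tropomyosins in PSS, 24.5 ± 0.824% in HSS and 30.1 ± 13.6% in Vortex.

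**Figure D3:**
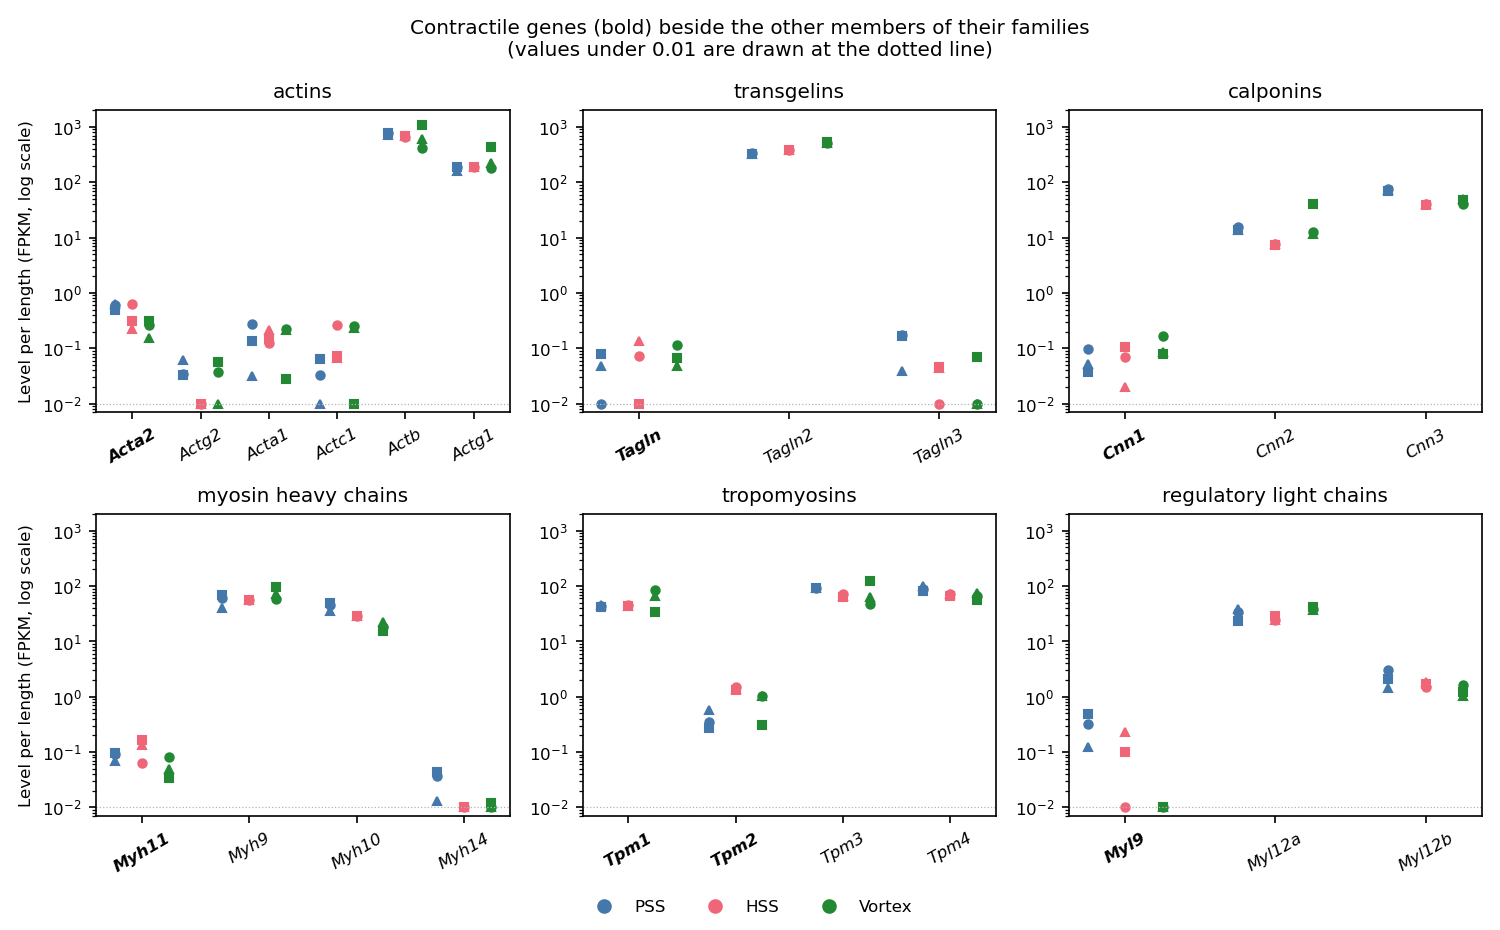
FPKM on a log axis for the contractile genes (bold) and the other genes of their families, each point a library, coloured by flow group. Acta2, Tagln, Cnn1, Myh11 and Myl9 lie below 1 FPKM in every library while a non-muscle relative lies above 10, and Tpm1 lies with Tpm3 and Tpm4.

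Of 17 non-muscle counterparts, 16 were tested. Cnn3, a calponin of non-muscle cells, was lower in HSS than in PSS, at 118.5, 112.6 and 121.2 against 215.6, 200.6 and 221.0 CPM (-0.86 ± 0.15 on the log2 scale, edgeR adjusted p = 0.012, and 0.000264 without Vortex replicate 2). It was the 1 of 16 called there, where 3.70% of all genes were called lower. In Vortex against PSS, Tagln2, the transgelin of non-muscle cells, was higher by 0.86 ± 0.13 (edgeR adjusted p = 0.00614, and 0.000417 without the replicate). Myh10, non-muscle myosin IIB, was lower there, at -1.06 ± 0.18 (0.00811, and 0.000999 without the replicate). Tagln2 was also higher in Vortex than in HSS, by 0.59 ± 0.13 (0.0353, and 0.00713 without the replicate). Tagln2 stood at 649.0, 634.1 and 665.9 CPM in PSS, 794.6, 764.2 and 795.8 in HSS, and 1183, 1237 and 1112 in Vortex, so that Vortex lay above both laminar groups. The medians of the list were -0.29, 0.31 and 0.43 in the order HSS against PSS, Vortex against PSS and Vortex against HSS; leaving out Vortex replicate 2 gave -0.29, -0.026 and 0.23, so that the second changed sign. The calls then were 0 higher and 5 lower, 3 higher and 4 lower, and 4 higher and 0 lower of 16, against 15.9% and 14.1%, 20.0% and 17.1%, and 14.1% and 10.5% of all genes.

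Of 24 other smooth muscle genes, 16 were tested and 1 passed, in HSS against PSS, where 4.18% of all genes were called higher and 3.70% lower. Hspb6, a small heat shock protein of smooth muscle, was higher in HSS at 17.0, 20.4 and 17.5 CPM than in PSS at 10.1, 7.72 and 10.7 (0.94 ± 0.21, edgeR adjusted p = 0.0296, and 0.00251 without Vortex replicate 2). No gene of the list passed in the Vortex comparisons with edgeR, where 5 and 2 of 16 had an unadjusted p under 0.05, against 29.8% and 26.9% of all genes. The smallest p belonged to Nexn, an actin-binding protein, against PSS (-1.57 ± 0.58, adjusted p = 0.105) and to Prkg1, cGMP-dependent protein kinase, against HSS (1.84 ± 0.65, 0.11). Both passed without Vortex replicate 2, Nexn as lower (-1.13 ± 0.38, edgeR adjusted p = 0.0423) and Prkg1 as higher (2.34 ± 0.32, 0.00127). When Vortex replicate 2 was left out, the calls were 1 higher and 3 lower, 3 higher and 2 lower, and 2 higher and 0 lower of 16 in the same order of comparisons. Of all genes, that fit called 15.9% and 14.1%, 20.0% and 17.1%, and 14.1% and 10.5%. Des, desmin, named after its values were seen, was present in every library, at 64.6, 64.7 and 91.8 CPM in PSS, 99.6, 95.4 and 91.9 in HSS, and 132.8, 57.6 and 157.3 in Vortex. It passed in no comparison with all libraries. Without the replicate it was higher in Vortex than in PSS (0.98 ± 0.17, edgeR adjusted p = 0.00178) and than in HSS (0.60 ± 0.17, 0.0296).

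Among SRF, its coactivators and antagonists, 11 of 13 genes were tested. Fhl1, a LIM protein of muscle, was lower in HSS than in PSS, at -1.67 ± 0.32 (edgeR adjusted p = 0.016, and 9.38e-06 without Vortex replicate 2). It was higher in Vortex than in HSS by 1.59 ± 0.32 (0.0245), and by 1.08 ± 0.13 without the replicate (0.000713). Its levels were 53.5, 54.5 and 61.1 CPM in PSS, 16.5, 17.8 and 18.9 in HSS, and 37.6, 85.1 and 37.6 in Vortex, so HSS lay below both other groups. In Vortex against PSS none passed in edgeR, with 2 of 11 at an unadjusted p under 0.05, against 29.8% of all genes, and Srf itself had the smallest p at 0.68 ± 0.22 (adjusted p = 0.0728). Srf was higher there without Vortex replicate 2, by 0.66 ± 0.21 (edgeR adjusted p = 0.0339). The Srf difference was not particular to Vortex. HSS against PSS gave 0.83 ± 0.22 (edgeR adjusted p = 0.0533), and 0.83 ± 0.19 without the replicate, which passed (0.00929). Vortex against HSS gave -0.15 ± 0.22 for Srf (edgeR adjusted p = 0.705). Myocd, the muscle coactivator myocardin, had 2, 0 and 0 counts in PSS, 1, 0 and 0 in HSS, and 4, 2 and 0 in Vortex.

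Mylk, the myosin light chain kinase gene, Ppp1r12b and Ppp1r14a were counted with the other smooth muscle genes above, and none of these passed in either fit. Mylk stood at 8.73, 9.62 and 8.13 CPM in PSS and at 5.98, 84.4 and 12.6 in Vortex. Its log2 fold change was 1.96 ± 0.80 (edgeR adjusted p = 0.136), and 0.08 ± 0.28 without Vortex replicate 2 (0.842). Of 13 further genes of light chain phosphorylation all were tested and none passed in edgeR in any comparison with all libraries. In the same order, 1, 1 and 2 had an unadjusted p under 0.05, against 23.4%, 29.8% and 26.9% of all genes. The smallest p belonged to Arhgef11 for HSS against PSS (0.59 ± 0.25, adjusted p = 0.19) and to the kinase gene Dapk3 for Vortex against PSS (0.81 ± 0.25, 0.0647) and against HSS (0.61 ± 0.25, 0.161). Dapk3 passed against PSS without Vortex replicate 2 (0.46 ± 0.14, edgeR adjusted p = 0.0247) but not against HSS (0.195). Arhgef11 did not pass in that fit either (0.0604). The fit without Vortex replicate 2 called 3 higher and 3 lower, 3 higher and 1 lower, and 2 higher and 0 lower of 11 for the SRF list. For the phosphorylation list it called 1 higher and 0 lower, 1 higher and 1 lower, and 0 higher and 1 lower of 13. Over all genes that fit called 15.9% higher and 14.1% lower, 20.0% and 17.1%, and 14.1% and 10.5%.

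**Figure D4:**
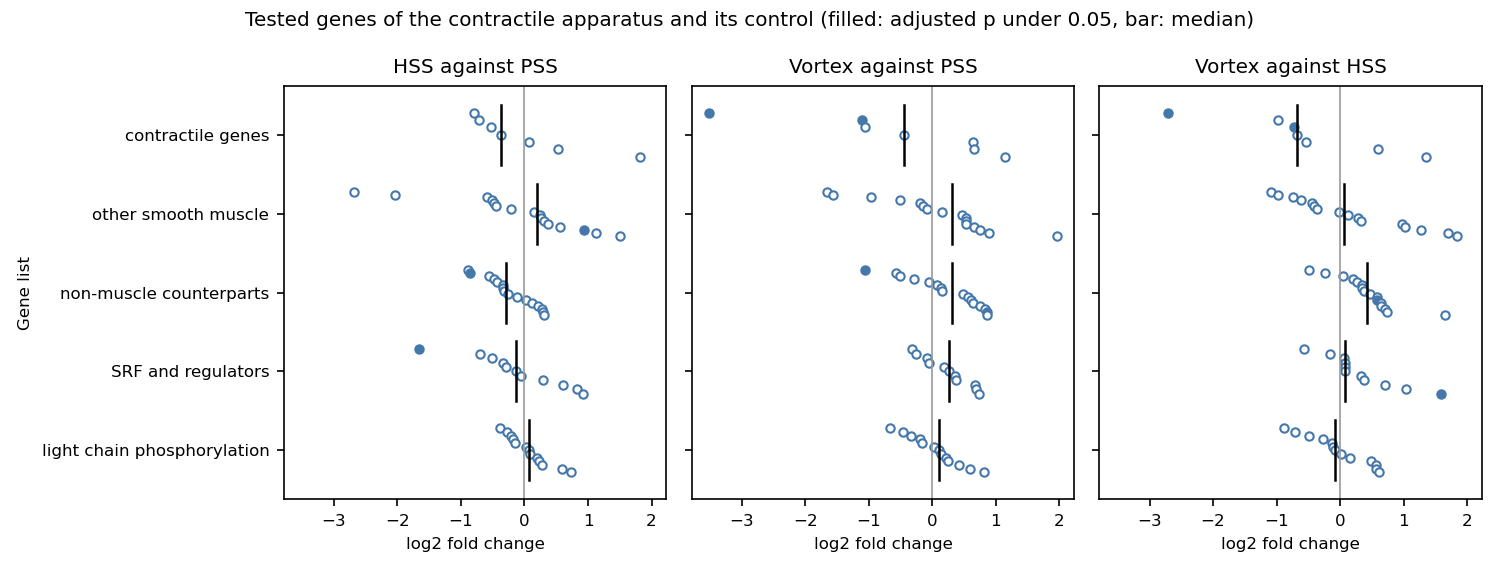
Log2 fold change of every tested gene of the contractile genes and 4 related lists in each comparison, with points filled at an edgeR adjusted p under 0.05 and the median of each list as a bar. Calls are few in each list, and the contractile genes spread to both sides of 0 in all comparisons.

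Markers of other cell types were measured beside these genes. No marker was at 0 in all libraries, but 2 of 10 pericyte and 4 of 8 leukocyte markers stayed under 10 counts throughout, among them Ptprc, the common leukocyte antigen, with at most 1 count. The summed level of the pericyte markers, 6 of them tested, was 94.8 to 135.0 CPM in PSS, 128.3 to 130.3 in HSS and 143.8 to 171.2 in Vortex. Of that sum Anpep alone held 46.0, 51.5 and 37.2 CPM in PSS, 14.2, 13.9 and 14.8 in HSS, and 84.7, 108.1 and 64.1 in Vortex. Anpep, an aminopeptidase of pericytes and other cells, was lower in HSS than in PSS, at -1.65 ± 0.23 (edgeR adjusted p = 0.0046, and 5.99e-05 without Vortex replicate 2). It was higher in Vortex than in PSS by 0.93 ± 0.22 (0.0273, and 0.0089 without the replicate) and than in HSS by 2.58 ± 0.24 (0.00263, and 7.19e-05). Kcnj8, a potassium channel, was higher in Vortex than in PSS by 2.95 ± 0.72 (0.0295, and 0.00306 without the replicate). Its levels were 0.454, 0.583 and 0.568 CPM in PSS, 1.74, 1.85 and 1.68 in HSS, and 1.39, 1.71 and 9.36 in Vortex. Vortex replicate 3 thus stood far above all other libraries, and the rest of Vortex lay near HSS. The receptor gene Notch3 was lower in Vortex than in HSS, at -0.96 ± 0.24 (0.0447, and 0.0135 without the replicate). Of the 6 tested, 2 were higher and 2 lower, 3 higher and 0 lower, and 1 higher and 1 lower without the replicate, in the order of comparisons used above. The shares of all genes called higher and lower in that fit were 15.9% and 14.1%, 20.0% and 17.1%, and 14.1% and 10.5%.

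Fibroblast markers, 9 of 10 with a row and 8 tested, summed to 776 to 1052 CPM in PSS, 1181 to 1254 in HSS and 160.2 to 1158 in Vortex. The sum of 160.2 was that of Vortex replicate 2, with 1158 and 1002 in replicates 1 and 3. Postn, periostin, was lower than in PSS both in HSS, at -2.38 ± 0.60 (edgeR adjusted p = 0.0436, and 0.00885 without Vortex replicate 2), and in Vortex, at -3.36 ± 0.66 (0.0121, and 0.00428). It was the 1 of 8 called in each of these, where 3.70% and 5.03% of all genes were called lower. In Vortex against HSS none passed in edgeR, with 3 of 8 at an unadjusted p under 0.05, against 26.9% of all genes, and Col3a1 had the smallest p (-1.52 ± 0.57, adjusted p = 0.127). Col3a1 was lower there without Vortex replicate 2 (-1.04 ± 0.17, edgeR adjusted p = 0.00251). Of the 8, leaving out the replicate gave 2 higher and 1 lower in HSS against PSS, where 15.9% of all genes were higher and 14.1% lower. It gave 2 higher and 2 lower in each Vortex comparison. The shares of all genes there were 20.0% and 17.1% against PSS, and 14.1% and 10.5% against HSS. The higher ones in Vortex were Dcn, decorin, and Pdgfra, a growth factor receptor, named after their values were seen. Dcn had 72, 73 and 101 counts in PSS, 176, 158 and 159 in HSS, and 648, 8 and 910 in Vortex. Pdgfra had 1374, 1491 and 1612, then 1556, 1213 and 1339, then 7412, 450 and 6731. Vortex replicate 2 was the lowest library for both and the other Vortex libraries were the highest. Against PSS, Dcn was at 2.84 ± 1.08 (edgeR adjusted p = 0.114) and at 3.42 ± 0.18 without the replicate (1.25e-06), and Pdgfra at 1.91 ± 0.78 (0.137) and 2.46 ± 0.15 (4.19e-06). Neither passed against HSS in the fit of all libraries (edgeR adjusted p = 0.314 and 0.148), and both were higher there without the replicate (6.16e-05 and 3.16e-05).

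Leukocyte markers, 4 of 8 tested, summed to 10.8 to 12.7 CPM in PSS, 35.8 to 39.2 in HSS and 30.1 to 80.8 in Vortex, lowest in replicate 2. Csf1r and Cd14 were higher in HSS than in PSS, by 3.20 ± 0.37 and 1.75 ± 0.40 (edgeR adjusted p = 0.00226 and 0.0326, and 7.92e-05 and 5.57e-05 without Vortex replicate 2). Csf1r, Cd14 and Cd68 were higher in Vortex than in PSS, by 2.78 ± 0.36, 2.19 ± 0.41 and 2.53 ± 0.49, and by 2.77 ± 0.35, 2.56 ± 0.18 and 2.96 ± 0.18 without the replicate. Cd68 was also higher in Vortex than in HSS, by 2.22 ± 0.49 (edgeR adjusted p = 0.0317, and 3.22e-05 without the replicate). With all libraries 2, 3 and 1 of the 4 were called, all higher, in the order used above, against 4.18%, 8.33% and 4.37% of all genes. Leaving out the replicate gave 2, 3 and 2 of the 4, all higher, against 15.9%, 20.0% and 14.1%.

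Markers of the labelled cell type were uneven across groups. The 12 endothelial markers, all tested, summed to 2510 to 3208 CPM in PSS, 705 to 719 in HSS and 1242 to 7128 in Vortex. The sum of 7128 was that of Vortex replicate 2, while replicates 1 and 3, at 1242 and 1637, lay below every PSS library. Of these markers, Pecam1 had 254 to 300 counts in PSS but 23 to 32 in HSS. In HSS 8 were lower than in PSS, against 3.70% of all genes. Without Vortex replicate 2, 11 were lower and 1 higher, against 14.1% and 15.9% of all genes. The 3 with the smallest p were Kdr, Vwf and Emcn, at -5.89 ± 0.83, -5.65 ± 0.89 and -4.46 ± 0.82 on the log2 scale, and at -5.89 ± 0.14, -5.65 ± 0.37 and -4.46 ± 0.44 without the replicate. In Vortex 9 were higher than in HSS, and 10 without the replicate, against 4.37% and 14.1% of all genes. The 3 with the smallest p there were Kdr, Vwf and Cdh5, at 5.42 ± 0.81, 4.70 ± 0.85 and 2.46 ± 0.48, and at 3.78 ± 0.14, 3.06 ± 0.35 and 1.54 ± 0.14 without the replicate. Flt1 was higher in Vortex than in PSS (1.01 ± 0.18, edgeR adjusted p = 0.00921, and 0.000966 without the replicate). It was the 1 of 12 called there, where 8.33% of all genes were called higher and 5.03% lower. Without Vortex replicate 2, 1 was higher and 10 were lower, against 20.0% and 17.1% of all genes. The part of these marker lists in the values of the contractile genes was not tested.

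The genes whose pattern over the 9 libraries was most like those of the members that passed were found by the root mean square difference of centred log2 CPM. For Cald1 they were Tubgcp5, a gamma-tubulin complex gene, and Supt16, a histone chaperone gene, at 0.0873 and 0.0943, small beside an SD of 0.53 for Cald1 over the libraries. Supt16 stood at 165.9 ± 2.32 CPM in PSS, 141.3 ± 6.83 in HSS and 75.0 ± 13.7 in Vortex (SD, n = 3). For Synpo2 they were AW551984 and Ccn4, at 0.492 and 0.500 beside an SD of 1.70. Ccn4, a matricellular protein gene of the CCN family, stood at 127.1 ± 33.5, 62.7 ± 2.39 and 20.4 ± 9.92 CPM.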

How the data were processed

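Polyadenylated RNA of bEnd.3 cells was measured in 9 libraries, 3 per flow group, assigned from the labels and column names. The authors deposited a table of 31232 genes with raw counts from HTSeq 0.13.5 after HISAT2 alignment to GRCm39, per the submitters' processing notes; the annotation and strand setting are not given in the sources used here. Without a known strand setting, reads of a gene and of an antisense partner cannot be told apart. TRIzol extraction and a NEBNext Ultra library kit are given per the labels' protocols, which speak of mixed RNA. The FPKM values in the same deposited table were made by the authors from count, gene length and column total, which was checked on the file (largest relative deviation 6.22e-15). Totals ranged from 17407217 to 22965802 counts per library.

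The counts were fitted with edgeR 4.0.16 in R 4.3.3: filterByExpr left 15774 genes, TMM scaled the libraries, and a robust quasi-likelihood fit over all 9 libraries (biological coefficient of variation 0.350) was tested per pair of groups. Calls are genes with p under 0.05 after Benjamini-Hochberg adjustment across the tested genes. Log2 CPM used a prior count of 2. Genes short of the filter are given as raw counts with exact 95% counting intervals, and a group at 0 is compared at 3 counts over the group. The members, gene lists and tests were chosen with earlier results of these data known. Lists were other smooth muscle genes, non-muscle counterparts, SRF and its coactivators and antagonists, light chain phosphorylation, and pericyte, fibroblast, endothelial and leukocyte markers. From each list the text names up to 3 called genes with the smallest p per comparison, or the gene with the smallest p where none was called, and for each called member the 2 genes most like it. Alternatives were DESeq2 1.42.0 (size factors and Wald test), other count filters, and limma 3.58.1 after adding 1 or 0.1 to FPKM before taking log2. Others were a replicate block, only the 6 compared libraries, and leaving out each library. A GC trend was also removed (lowess span 0.3, GC from GENCODE M21 for 98.5% of tested genes), with and without Vortex replicate 2. Leaving out Vortex replicate 2 from a fit of only the compared libraries was added after seeing the data. RefSeq promoter coordinates are on GRCm38.p6 and were not joined to the table by position. 35 rows have a symbol that occurs more than once in the table.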

Additional observations from a re-analysis of the deposited data

How the results depend on the processing

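Counts of contractile genes called moved as follows (main, then alternatives). HSS against PSS, 0: DESeq2 Wald 1, limma on log2 FPKM 2 (pseudocount 1) and 1 (pseudocount 0.1), the 6 compared libraries 4, GC trend removed without Vortex replicate 2 3, leaving out 1 library 0 to 3. Vortex against PSS, 2: 6 libraries 0, GC trend removed without Vortex replicate 2 5, compared libraries without it 4, leaving out 1 library 2 to 4. Vortex against HSS, 2: DESeq2 size factors 1, no filter beyond 1 count 1, 6 libraries 0, GC trend removed without Vortex replicate 2 4, compared libraries without it 4, leaving out 1 library 0 to 3. Of all genes, 1242, 2107 and 1111 were called in these comparisons; the Wald test gave 2456, 3489 and 2700, the 6 libraries 6291, 18 and 57, GC trend removed without Vortex replicate 2 4837, 6066 and 4293, compared libraries without it 3625 and 4140 in the Vortex comparisons, no filter 713 in Vortex against HSS, and leaving out 1 library 300 to 4718, 544 to 5850 and 25 to 3885. Limma on log2 FPKM turned the split of higher and lower calls from 1314 and 793 to 761 and 1530 (pseudocount 1) or 767 and 1418 (0.1) in Vortex against PSS, and from 690 and 421 to 409 and 815 or 419 and 704 in Vortex against HSS. The cause was not tested.

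The labels name no pairing by replicate number. Correlations of deviations of same-numbered libraries were -0.019, -0.123 and 0.010 (HSS and PSS), 0.118, -0.049 and 0.097 (Vortex and PSS) and 0.036, 0.007 and 0.041 (Vortex and HSS). Those of unlike-numbered libraries ranged from -0.074 to 0.108, -0.164 to 0.117 and -0.036 to 0.009 in the same order. With 3 libraries per group, whose deviations sum to 0, these values cannot decide whether same-numbered libraries shared a batch. With the replicate number as a block, 0, 2 and 1 contractile genes and 771, 1258 and 357 of all genes were called.

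Cald1 and Synpo2 in Vortex against PSS lost their calls only in the fit of 6 libraries (adjusted p = 0.0725 and 0.0501, over 20 alternatives). In Vortex against HSS, Cald1 lost its call in 11 of 20 alternatives (adjusted p up to 0.184) and Synpo2 in 4 (up to 0.0809), 3 of them leaving out an HSS library. The Smtn fold change in Vortex against PSS turned to -0.52 with the GC trend removed and Vortex replicate 2 left out (adjusted p = 0.00951), and to -0.29 without that library in either fit (range on leaving out 1 library -0.29 to 0.93). The Acta2 fold change in Vortex against HSS ranged from -0.82 to 0.0166 on leaving out 1 library, the last without HSS replicate 1. The Tpm2 call in HSS against PSS was gained in 7 of 19 alternatives (adjusted p from 0.00172 to 0.198 over all). Limma on log2(FPKM + 1) gave Synpo2 -0.93 and -0.56 in the Vortex comparisons, since a pseudocount of 1 shrinks low genes. Depth limits Acta2, Tagln, Cnn1, Myh11 and Myl9, at most 29 counts per library.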
